A study of Mus musculus with 25 samples.

Results

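The comparison asks what had changed in the transcriptome of cells sorted as sensorimotor cortex neurons 7 days after a spinal cord injury (SCI), in animals in which the repressor REST was left intact. The sort did not select cells whose axons reach the spinal cord, so an injured axon is not shown for each cell. Of the 25 libraries of the series, 7 were chosen by their labels, 3 from wild-type (WT) mice at day 7 after SCI (replicates 4, 7 and 12) and 4 from WT sham mice (replicates 3, 10, 14 and 17), and all 9931 genes with a symbol were examined. All 7 came from adult mice of the C57BL/6 strain that carried floxed alleles of Rest on both chromosomes and a Cre-dependent tdTomato reporter, so the animals called WT carry the floxed alleles too. AAV-Syn-GFP, in which the neuronal synapsin promoter drives GFP, had been injected into their sensorimotor cortex, and then a complete crush of the thoracic spinal cord or a sham operation. About 1000 GFP-positive cells per library were sorted and sequenced with a 3′ mRNA-seq kit, which reads the end of each transcript, so that values need no division by transcript length. The REST conditional knockout (REST cKO) mice used for comparison below had the same alleles and received AAV-Syn-Cre in place of AAV-Syn-GFP, and their cells were sorted by tdTomato.

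Some neurons of this cortical area send the corticospinal tract down the spinal cord, and in the adult they do not regrow an axon past a crush. In the cell body, injury can shift the balance between 2 kinds of genes, the genes that run a mature neuron (ion channels, transmitter receptors and vesicle release) and the genes used to grow (growth cone proteins and injury-induced transcription factors). REST silences many genes of mature neurons in non-neuronal cells and is itself low in mature neurons.

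The deposited values were on a log10 scale, so that a difference of 1 stands for 10-fold. In the 1134 genes where it could be solved in the first batch, 0 reads stood at -3 before the study regressed 2 alignment-quality components out of each gene, and the deposited values of such genes scatter around it. On the same footing a single read stood at -0.80 and -0.50 in sham replicates 3 and 10, and at -0.63 and -0.46 in day 7 replicates 4 and 7. These steps put the 4 libraries at about 8240000, 3920000, 5610000 and 4700000 counted reads. In the other 3 libraries, all of the second batch, the zero level differed from gene to gene and the depth could not be read. The share of values under -1 was 12.3 to 14.4% in the sham libraries and 14.9, 17.6 and 27.7% in day 7 replicates 4, 7 and 12, so that no day 7 library overlapped the sham libraries. Sham replicates 3 and 10 and day 7 replicates 4 and 7 belong to batch 1, and the rest to batch 2. The day 7 mice are all labelled female, and of the sham mice replicates 10 and 14 female and 3 and 17 male. Xist, the RNA that coats the inactive X chromosome of females, stood at 2.44 and 2.61 in the female and 0.44 and 0.43 in the male sham libraries. At day 7 it was 0.62, 2.44 and 0.26 in replicates 4, 7 and 12, so replicates 4 and 12 went against their label. Ddx3y, a gene of chromosome Y, was 2.18, -0.60, -0.32 and -0.77 in sham replicates 3, 10, 14 and 17, and 0.50, -0.87 and 2.20 in day 7 replicates 4, 7 and 12. Ddx3y was thus high in 1 of the 2 male sham libraries and in day 7 replicate 12, while Kdm5d and Uty, also of chromosome Y, overlapped between the male and female sham libraries.

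The label of the cells was set against marker genes, and the data went against it. Microglial genes were the highest of the marker lists. The 15 microglia and macrophage genes (Cx3cr1, P2ry12, Tmem119, C1qa and others) had medians of 3.12, 3.26, 3.37 and 3.13 in sham replicates 3, 10, 14 and 17 and 3.06, 3.16 and 2.84 in day 7 replicates 4, 7 and 12, and no value of any of the 15 was under -1. The 10 pan-neuronal genes (Rbfox3, Snap25, Map2 and others) had medians of 0.77 to 1.54 in sham and of 1.87, 1.07 and 0.80 at day 7. The 8 glutamatergic genes had medians of 0.16 to 1.27 in sham and 0.30 to 1.26 at day 7. The defining transcript of cortical glutamatergic neurons, Slc17a7, was present in all 7 libraries (0.51 to 2.13). The libraries are therefore called sham and day 7 libraries below, and a transcript cannot be given to neurons alone. Fewer cells of a type and less RNA per cell cannot be told apart in them.

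**Figure D1:**
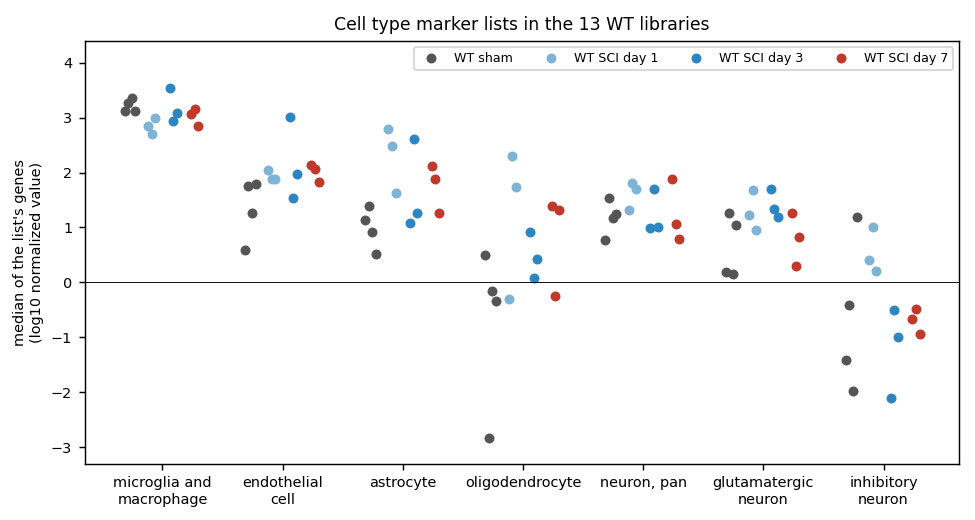
Median level of 7 cell type marker lists (log10 normalized value) in each of the 13 WT libraries, 1 point per library, grouped as sham, day 1, day 3 and day 7 after SCI. The microglia and macrophage list lies above the pan-neuronal list in every library shown, and the 3 day 7 points of the endothelial list (1.82, 2.07 and 2.14) lie above the 4 sham points (0.59 to 1.79).

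At an adjusted p-value under 0.1 (limma, Benjamini-Hochberg), 0 of 9931 genes (0%) differed between day 7 and sham, while 684 had an unadjusted p-value under 0.05. The smallest adjusted p-value was 0.172. Of the 684, 215 were higher at day 7 (2.16%) and 469 lower (4.72%). In 260 genes (2.62%) every day 7 library lay above every sham library, and in 422 (4.25%) every one lay below. Among the 3817 genes with a mean of at least 1 over the series, 123 were higher and 119 lower without overlap, while at an unadjusted p-value under 0.05 88 were higher and 126 lower. With quantile normalization the split at an unadjusted p-value under 0.05 was 257 higher and 282 lower, and the median difference over all genes moved from -0.12 to 0.01. The median standard error of a difference was 0.93 over all genes and 0.54 in the genes with a mean of at least 1. Without day 7 replicate 4, 647 genes were higher and 1080 lower without overlap, and without replicate 12 676 and 835. Without replicate 4 alone 7 genes passed the adjusted threshold, all lower (C1rb, Fam160a2, Fnip1, Hsp90aa1, Mapkapk2, Paox and Samd4b).

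Genes whose groups did not overlap and whose mean over the series was at least 0 were ranked by moderated t (limma). The 14 lowest at day 7 relative to sham were led by Mapkapk2 and Fam160a2. Mapkapk2, on chromosome 1 (131053700 to 131097826, minus strand, GRCm38), is the kinase MK2 that acts below p38. Its log10 values were 2.54, 2.30, 2.65 and 1.89 in sham replicates 3, 10, 14 and 17, and 0.86, 0.49 and 0.66 in day 7 replicates 4, 7 and 12. The groups lie apart in both batches. The fitted difference was -1.76 (standard error 0.35, adjusted p = 0.172 from limma), or 57.2-fold lower. Mapkapk2 did not pass the threshold in 17 of 20 other settings, where the adjusted p from limma was up to 0.657. It passed in 3, with the lowest value under a term for labelled sex (adjusted p = 0.0465 from limma). It is 1 of 140 genes whose deposited values still correlate with a sequencing component (1 of the 2 that the study regressed out). Fam160a2, on chromosome 7 (105371211 to 105400054, minus strand), is part of a complex that links cargo to dynein. It stood at 1.68, 1.47, 2.08 and 1.86 in sham replicates 3, 10, 14 and 17 and at -0.81, -3.12 and -1.54 in day 7 replicates 4, 7 and 12. All 4 sham values were above 1 and all day 7 values below 0 (difference -3.75, standard error 0.75, adjusted p = 0.172 from limma). No fold is given for it, since all its day 7 values lie under -0.5, where a few reads decide a value.

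Tns1, a focal adhesion protein, was 1.74, 1.82, 2.36 and 1.79 in sham and 0.09, 0.23 and -0.40 at day 7, in the same order of libraries. Rbbp4, a histone chaperone subunit, was 2.61, 2.38, 3.32 and 2.35 in sham and 0.26, -0.15 and 1.67 at day 7, a difference of -2.22 (standard error 0.56). Mgat4a, a glycosyltransferase of N-glycan branching, was 2.28, 2.10, 3.09 and 2.29 in sham and 0.83, -0.15 and 1.54 at day 7. In all 3 genes the groups were separate and the difference did not pass the test (adjusted p = 0.267 from limma for each). The others of the 14 lowest genes were Samd4b, Hist1h2ap, Brf2 (a subunit of an RNA polymerase III initiation factor), Kif2a (a kinesin that takes microtubules apart), Prkar1b (a regulatory subunit of protein kinase A), Zfp180, AU022252, Fnip1 and Msrb1 (a methionine sulfoxide reductase). Their differences ran from -4.72 for Brf2 to -2.09 for Prkar1b. Hist1h2ap has near-identical histone copies, so its reads may be shared with them.

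Of the 14 highest genes by the same ranking, 1 is on the astrocyte list. This gene, Gja1, the gap junction protein connexin 43 of astrocytes, was -0.20, 0.02, 0.62 and 0.09 in sham replicates 3, 10, 14 and 17 and 2.19, 1.89 and 0.91 in day 7 replicates 4, 7 and 12. Epas1, the hypoxia-inducible factor HIF-2α, was 1.34, 2.48, 2.68 and 2.32 in sham and 3.09, 2.97 and 4.00 at day 7. Plpp3, a lipid phosphate phosphatase, was 0.10, 0.58, 1.22 and 0.88 in sham and 2.42, 2.23 and 1.68 at day 7. Every day 7 value of these 3 genes lay above every sham value. The differences were 1.72 (standard error 0.48) for Gja1, 1.20 (standard error 0.33) for Epas1 and 1.53 (standard error 0.46) for Plpp3, and the adjusted p-values from limma were 0.364, 0.364 and 0.407. Per3, a component of the circadian clock, was -0.02, 0.27, 0.39 and 0.38 in sham and 2.26, 2.66 and 1.54 at day 7, a difference of 2.19 (standard error 0.61). The hour of sampling was not given in the sources used here. Ntm, a neuronal adhesion protein, was 0.55, 0.16, 1.46 and 1.48 in sham and 2.18, 2.43 and 2.49 at day 7. Myt1l, a transcription factor of neurons, was -2.87, 1.05, -1.03 and -0.64 in sham and 2.40, 1.45 and 3.35 at day 7. The remaining 8 genes of the highest 14 were Wtip, Gstp-ps, Tril, Mapre2 (a microtubule plus-end protein), Ppp4r1, Cap2 (an actin regulator), Rexo4 and Trib2. Their differences ran from 2.12 for Tril to 4.58 for Gstp-ps, a pseudogene that may share reads with its parent genes.

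**Figure D2:**
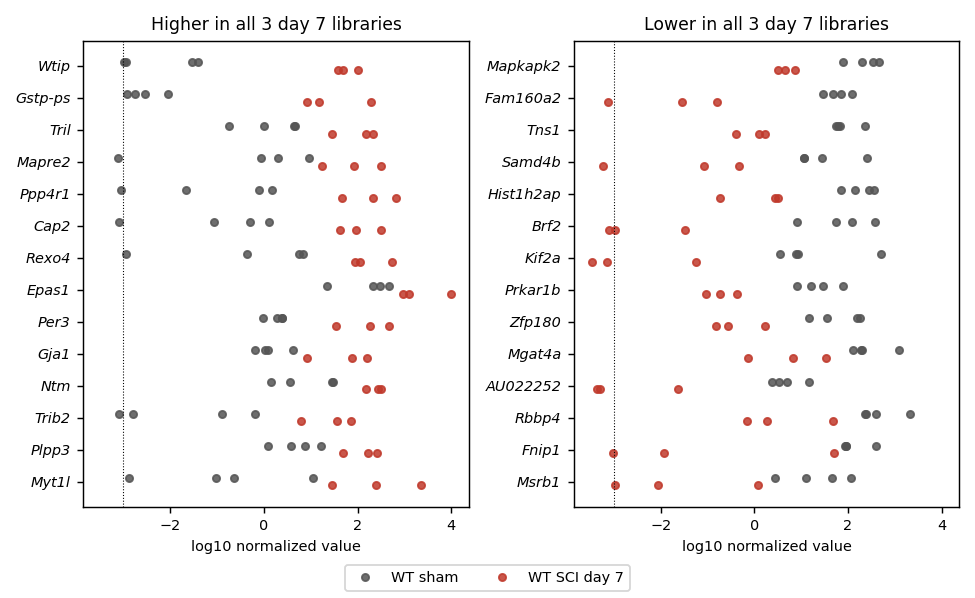
Log10 normalized values of the 14 genes with the highest and the 14 with the lowest moderated t among genes whose groups did not overlap and whose mean over the series was at least 0. Each point is 1 library, with the 4 WT sham libraries in grey and the 3 WT SCI day 7 libraries in red. The dotted line marks -3, the level of 0 reads in batch 1 before the components were regressed out. Mapkapk2 and Epas1 stay well above it in every library, while Fam160a2, Brf2 and Kif2a approach it at day 7.

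Marker lists of other cell types were examined beside these genes. Of 12 endothelial genes, 11 had a positive difference, against 43.9% of all genes, and the list's median difference was 0.47, against -0.12 over all genes. Without day 7 replicate 4 it was 0.29, with 10 of 12 positive. Flt1, Esam and Pecam1 were higher without overlap (3 of 12, against 2.62% of all genes). Flt1, a VEGF receptor, was 2.69, 2.50, 2.50 and 2.86 in sham and 2.98, 2.95 and 3.27 at day 7 (3.20-fold, difference 0.51, standard error 0.28). Of 9 astrocyte genes, 2 were higher without overlap, Gja1 and the glutamate transporter Slc1a3 (difference 0.66, standard error 0.28). Another 3 had a negative difference, among them the calcium-binding protein S100b (difference -2.58, standard error 1.17, adjusted p = 0.665 from limma). Of 11 oligodendrocyte genes, 8 had a positive difference and 2 were higher without overlap, among them the myelin gene Cnp (difference 1.58, standard error 1.08). The median of this list was 0.67, but 0.29 without day 7 replicate 4 and 1.10 without replicates 4 and 12. It was 0.06 over the 3 members with a mean of at least 1. The microglial list had a median difference of -0.02 (-0.19 without day 7 replicate 7). Of its 15 genes 1, Itgam, was lower in every day 7 library (difference -0.61, standard error 0.32). This was 6.67% of the list, near the 4.25% of all genes. None of the genes named here passed the test (adjusted p from 0.364 to 0.824 in limma), and the part that other cells had in the genes named above was not tested.

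Genes linked to regeneration were taken as the 18 that the study itself names for this experiment, a list chosen on these samples and so no independent evidence of direction. The median difference of the list was -0.57, and 0.29 over the 9 members with a mean of at least 1, so its direction turned with the expression level. Of the 18, 5 were lower without overlap (4.25% in all genes), 1 was higher, and 0 passed the test. Rest itself was the higher one. It was -0.55, -0.26, -0.39 and -1.55 in sham replicates 3, 10, 14 and 17 and 0.26, 2.30 and 2.74 in day 7 replicates 4, 7 and 12. All sham values were below 0 and all day 7 values above it (difference 2.04, standard error 0.87, adjusted p = 0.627 from limma). A single read stood at -0.80 and -0.50 in sham replicates 3 and 10 before the components were regressed out. A few reads thus decide these sham values of Rest, and no fold is given for it. The lower ones were Mapkapk2, Vav2, Pcna, Atf3 and Basp1. Atf3, a transcription factor that injury induces in sensory neurons, was 1.29, 0.29, 0.66 and 0.29 in sham and -0.11, -1.31 and -1.64 at day 7. Basp1, a growth cone protein, was 2.15, 2.20, 1.88 and 2.02 in sham and 1.49, 1.29 and 1.57 at day 7, a difference of -0.67 (standard error 0.32, 4.69-fold lower, adjusted p = 0.704 from limma). Vav2, an exchange factor for small GTPases, differed by -2.34 (standard error 0.65) and Pcna, the DNA polymerase clamp, by -2.05 (standard error 0.89). Rest, Mapkapk2, Pcna and Atf3 are among the 140 genes that correlate with a component.

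Among 31 growth cone and axon growth genes, Basp1 included, the median difference was 0.20 (0.11 without day 7 replicate 4, 0.13 without replicate 12 and 0.03 without both), and 3 were higher (9.68%, against 2.62% of all genes) and 1, Basp1, lower (3.23%, against 4.25%) without overlap. Klf6, a transcription factor that promotes axon growth in some neurons, was 1.93, 1.48, 2.08 and 1.79 in sham and 2.19, 2.28 and 2.21 at day 7. Crmp1, a cytoskeletal partner in semaphorin signalling, was 0.02, -0.09, 0.60 and 0.38 in sham and 1.27, 1.69 and 1.24 at day 7. Marcksl1, a membrane and actin-linking protein, differed by 2.40 (standard error 1.23). The adjusted p-values of the 3 lay between 0.743 and 0.862 in limma, so that none of them passed the test.

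Lists of energy metabolism and stress defence had small medians with genes in both directions. Of 81 subunits of oxidative phosphorylation, 50 had a positive difference, with a median of 0.13 (0.21 without day 7 replicate 12), and 3 of complex I (Ndufs5, Ndufs4 and Ndufb10) were higher and Atp5j2 lower without overlap. These were 3.70% and 1.23% of the list, against 2.62% and 4.25% of all genes. Ndufs5 was 0.59, 1.99, 1.63 and 1.27 in sham and 2.92, 2.71 and 2.35 at day 7 (difference 1.20, standard error 0.45). Among 19 mitochondrially encoded genes only mt-Nd6, which lies on the other strand of the mitochondrial genome from most of them, was apart, at 3.38, 2.84, 3.34 and 3.22 in sham and 3.54, 3.63 and 3.80 at day 7 (2.91-fold, difference 0.46, standard error 0.17). Of 48 genes of oxidative stress defence 30 had a negative difference. The metallothioneins Mt1 and Mt3 and the autophagy receptor Sqstm1 were higher and Msrb1 and Gss lower without overlap, 6.25% and 4.17% of the list. Sqstm1 was 1.52, 1.65, 1.79 and 1.75 in sham and 2.48, 2.40 and 2.15 at day 7. The groups were apart, with a difference of 0.67 (standard error 0.28, adjusted p = 0.625 from limma). Of 31 genes of cell death and survival, 3 were lower without overlap, among them Mapk10 and Birc6, and 0 higher (9.68% lower, against 4.25% of all genes). Birc6, an inhibitor of apoptosis, differed by -1.30.

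In the housekeeping and immune lists, counts without overlap are to be read against 2.62% of all genes higher and 4.25% lower. The 80 cytoplasmic ribosomal protein genes had a median difference of 0.03, with 1 gene higher and 1, Rpl12, lower without overlap. Of 63 mitochondrial ribosomal protein genes, 3 were lower (Mrpl34, Mrpl57 and Mrpl38) and Mrpl21 higher. Of 45 proteasome genes, Psmd12 and Psmb7 were higher. Of 54 splicing genes, 2 were higher, Hnrnpul1 and Hnrnpk, and 4 lower, Hnrnpr, Hnrnpd, Sf3b5 and Srsf7. Of 36 chaperone and unfolded protein response genes Hyou1 and Dnajb1 were higher and Asns and Hspa9 lower. Hspa9, the mitochondrial Hsp70, was 1.97, 2.21, 2.53 and 2.87 in sham and 1.70, -0.38 and 1.43 at day 7. Of 43 genes of antigen presentation, interferon and cytokines, the chemokine Ccl4 was higher (difference 1.39, standard error 0.61) and Il1a and Ifngr1 lower. Il1a, which encodes interleukin 1α, was 1.56, 1.83, 2.01 and 1.25 in sham and -0.46, -0.06 and -0.82 at day 7, with a difference of -2.21 (standard error 0.70, adjusted p = 0.443 from limma). The immediate early genes Jund and Egr2 were the 2 of 19 that were higher (10.5%). A list of 13 dissociation-induced early genes, Jund among them, had a median difference of 0.45, with 1 gene higher and 1 lower. Over its 9 members with a mean of at least 1 the median was -0.04. Of 22 cholesterol synthesis genes, 16 had a positive difference, with Cyp51 and Insig1 higher (9.09%) and Sqle lower without overlap. Of 37 lysosome and autophagy genes only Ctsb, which was nearly level in sham (3.46 to 3.48), was apart, at 3.60, 3.50 and 3.70 (1.28-fold). Of 19 subunits and accessory proteins of the V-ATPase, the proton pump of lysosomes and synaptic vesicles, Atp6v1h and Atp6ap1 were lower (10.5%).

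Genes of the synapse and of excitability went both ways against sham. Of 40 genes of synaptic vesicles and release, the vesicle protein Sv2b was higher and Syngr3, Synj1 and Unc13a lower without overlap (1 and 3 of 40, against 2.62% and 4.25% of all genes), and the median difference was -0.02. Synj1, which uncoats endocytosed vesicles, was 2.82, 2.17, 2.74 and 2.54 in sham and 1.58, 1.90 and 1.85 at day 7 (6.72-fold lower, difference -0.83, standard error 0.32, adjusted p = 0.555 from limma). Snap25, a SNARE of the presynapse, was 1.13, 2.11, 1.65 and 2.09 in sham and 2.07, 2.96 and 1.52 at day 7, with overlap. Median differences were 0.05 for 17 glutamate receptor genes, 0.00 for 45 potassium channel genes (22 positive and 23 negative), 0.12 for 14 calcium channel genes and 0.46 for 6 sodium channel genes. Without overlap 1 of the 17 glutamate receptor genes, 2 of the 45 potassium channel genes and 2 of the 14 calcium channel genes were lower (14.3% of the last, against 4.25% of all genes), 1 potassium channel gene was higher, and 0 of the 6 sodium channel genes were apart. These medians depended on the libraries and the scaling, and that of the synaptic vesicle genes was 0.12 without day 7 replicate 4 and 0.20 with quantile normalization. That of the glutamate receptors was 0.28 without day 7 replicate 4, -0.17 without replicate 12, -0.65 without both and 0.37 with quantile normalization. That of the potassium channels was -0.27 without replicate 4, -0.31 without replicates 4 and 12 and 0.15 with quantile normalization, and that of the calcium channels 0.39 and 0.45 in the last 2 settings. That of the sodium channels was 0.99 without day 7 replicate 7. Of 40 kinesin and dynein genes, Kif5c was higher (1 of 40) and Kif2a and Kif22 lower (2 of 40) without overlap, near the shares over all genes. Of 35 known REST target genes of neurons, 1 was lower (2.86%) and 0 were higher without overlap, with a median of -0.34. The median was -0.07 with quantile normalization, -0.18 without day 7 replicate 12, and 0.40 over the 10 members with a mean of at least 1, so its direction turned with the expression level. Most of these genes had low values, and for 38 of the 45 potassium channel genes the mean over the series was under 1.

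The same day 7 libraries were then set against the earlier times after injury, the mean of days 1 and 3 (3 against 6 libraries). Here 7 genes had an adjusted p-value under 0.1 (limma), all lower (0.0705% of all genes, with 0% higher), and 993 had an unadjusted p-value under 0.05. In 264 genes (2.66%) every day 7 library lay below every library of days 1 and 3, and in 127 (1.28%) above. The 7 genes were Lgals8, Dgke, Prkar1b, Msrb1, Zfp180, Samd4b and Cacna2d1.

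Lgals8, on chromosome 13 (12439415 to 12464944, minus strand), encodes galectin-8, a sugar-binding protein that marks damaged endosomes. It was 1.59, 2.03 and 1.87 at day 1 (replicates 1, 8 and 11), 3.23, 1.88 and 2.89 at day 3 (replicates 5, 16 and 22) and -0.34, -0.15 and -0.19 at day 7 (replicates 4, 7 and 12). The sham libraries stood at 1.86, 1.42, 1.33 and 1.51. Day 7 was the lowest of the 4 groups with no overlap, by -2.61 from days 1 and 3 (standard error 0.45, adjusted p = 0.0449 from limma) and by -1.83 from sham (standard error 0.49, adjusted p = 0.354 from limma). Dgke, on chromosome 11 (89035179 to 89066850, minus strand), encodes a diacylglycerol kinase. It was 2.04, 2.21 and 1.90 at day 1, 1.14, 2.28 and 1.27 at day 3 and -0.35, -0.10 and -1.14 at day 7, while sham stood at -0.11, 0.50, 1.14 and 0.34. Day 7 was apart from days 1 and 3 and overlapped sham. Its difference from days 1 and 3 was -2.52 (standard error 0.49, adjusted p = 0.0757 from limma). Cacna2d1, on chromosome 5 (15934691 to 16374511, plus strand), is an auxiliary subunit of voltage-gated calcium channels. It was 1.53, 2.24 and -0.74 at day 1, 3.22, 2.40 and 0.79 at day 3 and -2.70, -2.99 and -1.49 at day 7, with sham at -0.78, 1.04, 1.24 and 0.35. Its day 7 values in replicates 4 and 7 were near -3.

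Prkar1b, Zfp180, Samd4b and Msrb1 were also among the 14 lowest genes against sham. Prkar1b was 1.79, 1.92 and 1.43 at day 1, 2.06, 2.41 and 0.71 at day 3 and -1.03, -0.37 and -0.74 at day 7. Zfp180, a zinc finger protein, was 2.05, 1.87 and 2.71 at day 1, 0.63, 1.93 and 2.31 at day 3 and 0.23, -0.57 and -0.82 at day 7. Samd4b, an RNA-binding protein, was 1.12, 1.97 and 1.14 at day 1, 2.11, 1.78 and 1.27 at day 3 and -0.33, -3.23 and -1.09 at day 7. Msrb1 was the only one of the 7 with overlap, since day 1 replicate 11 (0.04) lay below day 7 replicate 4 (0.07). Prkar1b and Cacna2d1 correlate with a component. The 7 calls did not hold under all settings. With a term for batch, library weights or quantile normalization 0 genes passed, and without day 7 replicate 12 or without day 1 replicate 8 also 0. Lgals8 kept an adjusted p-value under 0.1 in 14 of 20 other settings, Dgke in 10 of 20, Prkar1b in 9 of 19, Msrb1 in 9 of 20, Samd4b in 8 of 20, Zfp180 in 7 of 20 and Cacna2d1 in 6 of 19.

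**Figure D3:**
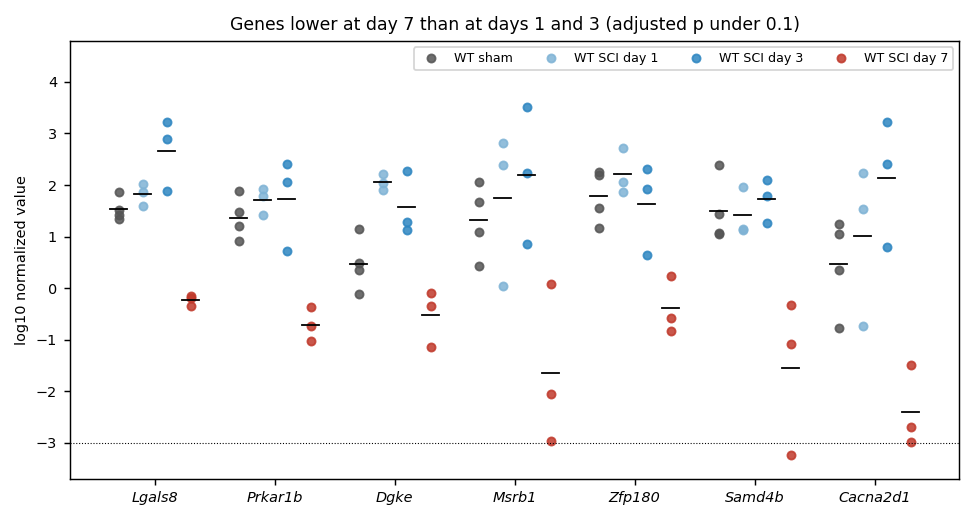
Log10 normalized values of the 7 genes that passed the adjusted p-value of 0.1 between day 7 and days 1 and 3 in WT, 1 point per library and a bar for each group's mean, in the order sham, day 1, day 3 and day 7. The 3 day 7 points lie below all sham points in each gene except Dgke, and the dotted line marks -3, the level of 0 reads in batch 1 before the components were regressed out.

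The 250 bases upstream of the start that RefSeq lists are shown for 3 of these genes with 1 listed start (GRCm38.p6), so that the promoters of genes lower together at day 7 can be read side by side. Capitals mark a GC box, searched as GGGCGG on either strand, or a CCAAT box, searched on either strand by the letters of its name. The start of Lgals8 lies inside the gene as GENCODE draws it, and that of Dgke does too.
Lgals8, chr13:12461739-12461988, minus strand: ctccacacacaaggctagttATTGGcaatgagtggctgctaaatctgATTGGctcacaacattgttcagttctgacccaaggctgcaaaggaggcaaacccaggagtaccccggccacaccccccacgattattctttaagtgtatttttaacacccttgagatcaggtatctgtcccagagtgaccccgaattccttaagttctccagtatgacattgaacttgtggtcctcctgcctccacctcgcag
Dgke, chr11:89060749-89060998, minus strand: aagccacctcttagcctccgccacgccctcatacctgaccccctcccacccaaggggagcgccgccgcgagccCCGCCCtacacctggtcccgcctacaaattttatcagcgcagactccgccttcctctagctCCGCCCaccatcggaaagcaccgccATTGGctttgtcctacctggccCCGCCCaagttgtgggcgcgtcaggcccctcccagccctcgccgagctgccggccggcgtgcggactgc
Zfp180, chr7:24081647-24081896, plus strand: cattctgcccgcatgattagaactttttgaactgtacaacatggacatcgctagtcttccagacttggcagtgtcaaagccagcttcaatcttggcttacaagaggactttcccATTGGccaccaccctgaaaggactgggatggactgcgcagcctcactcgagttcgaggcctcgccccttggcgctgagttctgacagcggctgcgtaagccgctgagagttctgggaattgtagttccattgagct
A CCAAT box was found in 4 of the 6 genes with 1 listed start and a GC box in 4 of 6, against 33.8% and 32.7% of the 32851 promoter windows of the same length. These windows include genes outside the 9931 and several starts for some genes, so the shares are not of like sets. Whether they differ was not tested. Each of the 3 promoters shown has a CCAAT box, while those of Cacna2d1 and Samd4b, not shown, have 0. The letters of a cAMP response element (TGACGTCA) were found in 0 of 6, against 1.55% of all windows. The TATA box letters (TATAAA) were in 1 of 6, against 12.4%.

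Lists were then compared at day 7 against days 1 and 3. The median difference over all genes was -0.17, with 58.8% of genes negative. It was -1.22 in the 17 glutamate receptor genes (12 negative), -0.76 in the 45 potassium channel genes (32 negative), -0.81 in the 14 calcium channel genes (11 negative), -0.49 in the 40 synaptic vesicle and release genes (33 negative) and -0.90 in the 35 known REST target genes (29 negative). These lists stood above sham at days 1 and 3. Their medians against sham were 1.18 and 1.06 for the glutamate receptors and 0.65 and 0.32 for the potassium channels. They were 0.82 and 0.86 for the calcium channels, 0.81 and 0.61 for the synaptic vesicle genes and 0.97 and 0.47 for the REST targets. Over all genes they were 0.12 and 0.01. At day 7 against days 1 and 3 the median was -1.08 in the 18 regeneration genes named by the study (13 negative), a list chosen on these samples. Of these, 3 (Basp1, Vav2 and Mapkapk2) were lower without overlap. That median was -0.61 without day 7 replicate 12 and -0.56 with quantile normalization. Over members with a mean of at least 1 the medians were -0.70 for 3 glutamate receptor genes, -0.56 for 7 potassium channel genes, -0.41 for 24 synaptic vesicle genes, -0.47 for 10 REST target genes and -0.40 for 9 regeneration genes, against -0.05 for all such genes, and 0 calcium channel genes had such a mean. Lower without overlap were 4 of the 17 glutamate receptor genes, 7 of the 45 potassium channel genes, 3 of the 14 calcium channel genes and 4 of the 35 REST target genes, against 2.66% of all genes. Of the 40 synaptic vesicle and release genes 1 was, near that share, and 0 of 12 GABA and glycine receptor genes and 0 of 6 sodium channel genes were. Of these Cacna2d1 passed the test, a call that was lost in 13 of 19 other settings. Named after their values were seen, the metabotropic receptor Grm2 differed by -3.85 (standard error 0.94, adjusted p = 0.128 from limma), the delta receptor Grid1 by -3.54 (standard error 0.87, adjusted p = 0.128), the P/Q-type channel Cacna1a by -3.19 (standard error 0.99, adjusted p = 0.221) and the release regulator Cplx1 by -3.50 (standard error 1.12, adjusted p = 0.244). None of the 4 passed, and Grm2 and Grid1 are among the genes that correlate with a component.

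Marker lists of whole cell types were examined in that comparison too, and 0 of their genes passed the test. The pan-neuronal list had a median of -0.53 (7 of 10 negative), the glutamatergic list -0.80 (8 of 8 negative, with 1, Camk2a, lower without overlap), the inhibitory neuron list -0.90 (4 of 5 negative), the astrocyte list -0.65 (8 of 9 negative) and the oligodendrocyte list -0.33 (7 of 11 negative). The layer 5 and corticospinal neuron list had -0.20 (4 of 7 negative, 1 higher and 2 lower without overlap, where 1.28% and 2.66% of all genes were), close to the -0.17 of all genes, while the microglial list had 0.15, the pericyte and smooth muscle list 0.37 and the endothelial list -0.07. The last 2 turned to -0.14 and 0.06 without day 3 replicate 5, and the microglial list was at 0.05 without day 7 replicate 7. No pan-neuronal or astrocyte gene was lower without overlap. Single libraries moved these medians. Without day 7 replicate 7 they were -0.17 for the pan-neuronal, -0.41 for the glutamatergic (5 of 8 negative), -0.20 for the inhibitory neuron, -0.39 for the astrocyte and 0.25 for the layer 5 and corticospinal list, against -0.14 over all genes. The layer 5 and corticospinal list was at -0.75 without day 7 replicates 4 and 12 and so took either sign. Without day 7 replicate 12 the astrocyte list was at -0.36, and without replicate 4 the inhibitory neuron list was at -1.57 and the oligodendrocyte list at -0.64. At days 1 and 3 the medians against sham were 0.77 and 0.52 for the pan-neuronal, 1.12 and 0.93 for the glutamatergic and 1.22 and 0.20 for the inhibitory list. They were 1.03 and 1.01 for the astrocyte and 2.05 and 0.35 for the oligodendrocyte list. Whether these markers account for the channel and receptor genes was not tested. Day 3 replicate 5 had the largest share of values under -1 (34.0%) in the series, and a single read in it stood at 0.40. Without it the medians were -0.94 for glutamate receptors, -0.70 for potassium channels, -0.52 for synaptic vesicle genes and -0.64 for REST targets. Without day 7 replicates 4 and 12 they were -1.26, -1.01, -0.56 and -0.65, with 26 of 40 synaptic vesicle genes, 22 of 35 REST targets and 7 of 14 calcium channel genes negative. With quantile normalization they were -0.69, -0.38, -0.37 and -0.43, and that of the calcium channels -0.19, while the median over all genes was 0.03. Without day 7 replicate 7 that of the glutamate receptors was -0.42 and that of the potassium channels -0.49. The highest median was 1.09, in the 2 oligodendrocyte precursor genes.

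**Figure D4:**
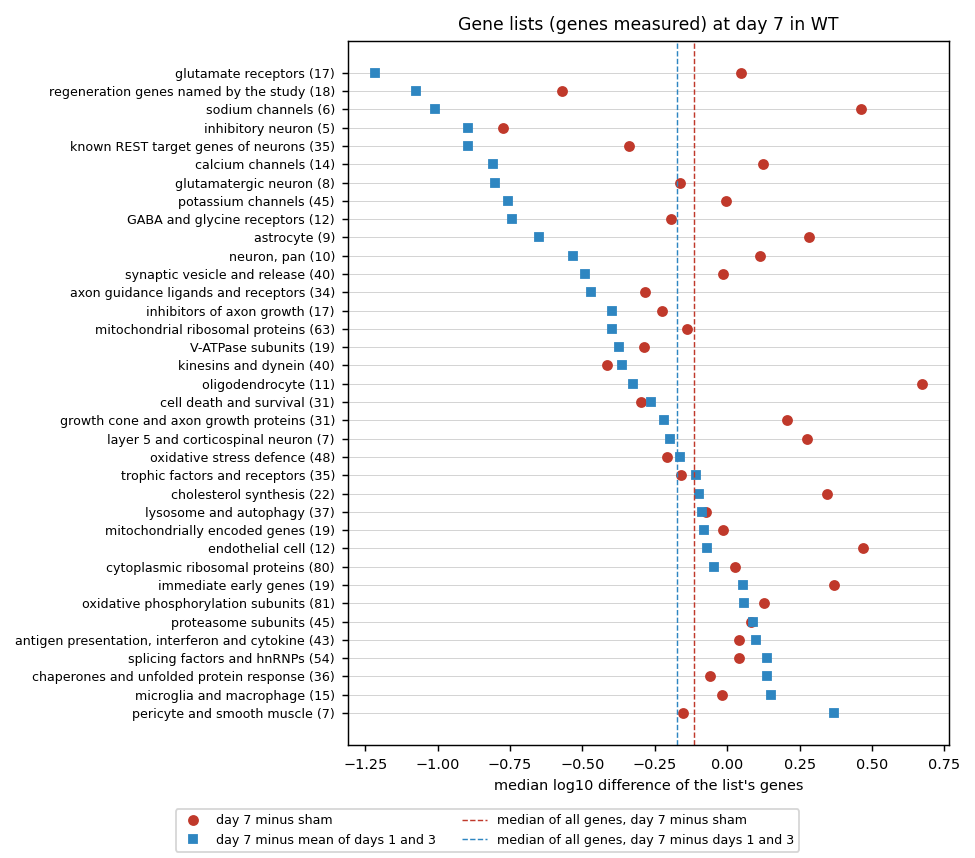
Median log10 difference of the genes in each list with at least 5 genes measured, for day 7 minus sham (red circles) and day 7 minus the mean of days 1 and 3 (blue squares), with the medians over all 9931 genes (-0.12 and -0.17) as dashed lines. The list of dissociation-induced early genes is left out. Both comparisons use the same day 7 libraries. Glutamate receptor genes lie at 0.05 against sham and at -1.22 against days 1 and 3.

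Whether the day 7 response differed from that of REST cKO mice was tested as the difference of the differences. In this test 2 of 9931 genes passed, both lower in WT (0.0201%, with 0% higher), and 631 had an unadjusted p-value under 0.05. Phf14, a chromatin reader on chromosome 6 (11907809 to 12081205, plus strand), was 2.41, 2.44, 1.40 and 1.74 in WT sham and 0.61, 0.62 and 1.21 at WT day 7. In REST cKO it was -0.02, 1.13 and 1.45 in sham (replicates 6, 18 and 23) and 2.64, 3.86 and 2.40 at day 7 (replicates 2, 13 and 26). It was thus lower at day 7 in every WT library and higher in every REST cKO library than in the sham libraries of the same genotype, and the differences were -1.57 (standard error 0.52) and 2.82 (standard error 0.59). Rxrb, a nuclear receptor partner on chromosome 17 (34031812 to 34038399, plus strand), was 1.43, 1.84, -0.57 and 0.09 in WT sham and -3.55, -3.24 and -2.68 at WT day 7, where it was near -3, and -3.53, -2.23 and -0.46 in REST cKO sham and 1.93, 1.96 and 1.16 at REST cKO day 7. The difference between genotypes was -4.39 (standard error 0.83) for Phf14 and -8.83 (standard error 1.61) for Rxrb, with an adjusted p of 0.0780 from limma for both. The value for Rxrb is no measured size, since 5 of its 13 values lie under -2, and with values under -0.5 raised to -0.5 it was -4.02 (adjusted p = 0.638 from limma). All WT day 7 mice are labelled female and all REST cKO sham and day 7 mice male, so genotype and labelled sex cannot be told apart within day 7. With a term for sex or for batch 0 genes passed. Leaving out WT day 7 replicate 12, either REST cKO day 7 replicate 2 or 26, or sham replicate 3, 10 or 17 of WT also left 0.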

How the data were processed

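RNA of GFP-sorted cells was measured by 3′ mRNA-seq. The authors deposited log10 values of normalized counts per gene, as inferred here from the values. The study describes its plotted counts as log2, and every fold printed depends on the log10 reading. They had aligned reads to mm10/GRCm38 with STAR, quantified with Salmon and tximport, scaled by geometric means (DESeq2), corrected for batch by RUV, dropped genes without counts in most samples and regressed out the first 2 principal components of alignment metrics. Their own fold changes and p-values in the same table were not used. The tests were planned for log2. The scale was read as log10(normalized count + 0.001), since, with the components added back, the floor was -3 in all 1134 genes where at least 4 batch 1 libraries lay on it (tolerance 1e-06) and 45.7% of low values were whole multiples of a read (within 0.02) on that scale, against 4.24% as log2. Read totals could be approximated in batch 1 only, so no counting interval was computed. Removing batch gene by gene can change low values most.

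Of 9955 rows, 24 had no symbol and were left out. limma 3.58.1 in R 4.3.3 fitted a mean for each of 8 groups and the 2 components over all 25 libraries, with the variance prior following the mean and p-values adjusted by Benjamini-Hochberg over 9931 genes (threshold 0.1). It was tested on simulated data. The study counts mice as replicates. Differences come from this model, and group values are as deposited. Named genes were the 14 highest and 14 lowest by moderated t among genes whose groups did not overlap and whose mean was at least 0, up to 3 genes per direction in each of 39 lists (1 where none was apart), and Rest, Xist and 4 Y genes. The genes and lists were chosen with earlier results of these data known. Alternatives were no components, only the 7 libraries, terms for batch and for sex, weighted libraries, a minimum mean of 0, a flat variance prior, quantile normalization, only genes not correlated with a component, a threshold of 0.05, only female sham libraries, only batch 1, and each library left out. A floor of -0.5, a mean of at least 1, a term for the share of values under -1, and leaving out both day 7 libraries of low Xist were chosen after seeing the data. Positions are from GENCODE (9930 of 9931 genes matched) and promoters from RefSeq. Some genes are not reported here. Figures used Python 3.11.15 and matplotlib 3.10.9.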

Additional observations from a re-analysis of the deposited data

Results flagged for a closer look

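Within the 4 WT sham libraries, a single library lay far from the other 3 in 5 of 144 values checked, where its gap to the nearest library, as a share of the range, exceeded Dixon's critical value for 4 values. Chance alone gives about 1 such value in 20. The gap was 0.872 of the range in Tns1 and 0.973 in Fnip1, where replicate 14 was highest, 0.847 in Marcksl1, where replicate 14 was lowest, 0.847 in Ddx3y, where replicate 3 was highest, and 0.860 in the median of the axon guidance list, where replicate 14 was highest.

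The day 7 value differed from the mean of days 1 and 3 in WT by a tested contrast in 7 genes. The log10 differences were -4.28 in Cacna2d1, -2.52 in Dgke, -2.61 in Lgals8, -3.81 in Msrb1, -2.46 in Prkar1b, -3.26 in Samd4b and -2.47 in Zfp180. The WT and REST cKO responses at day 7 differed by -4.39 in Phf14 and -8.83 in Rxrb, by the interaction in limma. The value for Rxrb is no measured size, since 5 of its 13 values lie under -2, and it was -4.02 (adjusted p = 0.638 from limma) with low values raised to -0.5.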

How the results depend on the processing

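Against sham, the count of 0 genes became 5 without the components, 1 with a term for sex, 2 without the trend, 1 among genes with a mean of at least 1, and 7 without both day 7 libraries of low Xist, and it was 0 under the other settings. Leaving out 1 library gave 0 to 7. For day 7 against days 1 and 3, the 7 genes became 14 without the components, 0 under a batch term, 1 under a sex term, 0 with library weights, 12 with a mean of at least 0, 22 without the trend, 0 with quantile normalization, 1 among genes not correlated with a component, 1 at a threshold of 0.05, 1 with the floor raised to -0.5, 21 with a term for the share of low values and 63 without both libraries of low Xist. Leaving out 1 library gave 0 to 64, with 64 without day 7 replicate 4. For WT against REST cKO, the 2 genes became 0 without the components, under a batch or sex term, with a mean of at least 0 and at 0.05, 4 with library weights or without the trend, and 1 with quantile normalization or the raised floor. Leaving out 1 library gave 0 to 6. The cause was not tested. Of 120 gene differences, 117 kept their sign under every setting run. Xist changed to 0.14 in batch 1 alone and to 0.93 without both libraries of low Xist, Ddx3y to -1.03 and -0.96 in the same settings and from -0.18 (without day 7 replicate 12) to 1.92 with 1 library left out, and Uty to 0.27 without both libraries. No paired analysis was possible because the groups share no replicate number. In genes near a single read a few reads decide a value, and the part of depth was not tested.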
